A study of Mus musculus with 9 samples.

Results

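The collagen crosslinking and hydroxylation enzymes were examined in the pressure-overloaded left ventricle. The set was defined by name and listed 10 genes: the lysyl oxidases Lox, Loxl1, Loxl2, Loxl3 and Loxl4, the lysyl hydroxylases Plod1, Plod2 and Plod3, and the prolyl 4-hydroxylase alpha subunits P4ha1 and P4ha3. Every array probe set annotated with exactly 1 gene symbol from this list was taken, which gave 16 of 45037 probe sets and 9 of 18193 genes. Loxl2 was not analysed here, because both probe sets that carry its symbol also carry a second one. The arrays were Affymetrix mouse expression arrays of left ventricle from male C57BL/6 mice 6 weeks after surgery. The TAC group (4 arrays) had undergone transaortic constriction, which narrows the aorta so that the ventricle ejects against a raised pressure, and the sham group (5 arrays) the operation without it. All groups were of the same strain and sex, and no genetic change, drug or batch is given in the labels. Values are log2 signals per probe set made by RMA, a method that corrects, normalizes and summarises the probes, and each difference is TAC minus sham on that log2 scale, so that 1 unit is a doubling.

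Collagen is modified both inside and outside the cell. Inside the cell, prolyl 4-hydroxylases, made of a catalytic alpha subunit and the P4hb protein, hydroxylate prolines and so keep the triple helix stable at body temperature, and lysyl hydroxylases (the Plod genes) hydroxylate lysines that later take part in crosslinks. These hydroxylases use iron, alpha-ketoglutarate and vitamin C. Outside the cell, the copper-dependent lysyl oxidases turn lysines and hydroxylysines of collagen and elastin into aldehydes, from which covalent crosslinks form that make the matrix stiff and resistant to breakdown. In the heart these enzymes are made largely by fibroblasts, and crosslinked collagen is known as a component of the stiff fibrotic ventricle.

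The measured lysyl oxidase genes rose in TAC ventricles, and the lysyl hydroxylase genes did not pass the test at the probe sets standing for them. Whether the families differed from each other was not tested. With 1 probe set per gene, the brightest, 5 of 9 genes were higher at a Benjamini-Hochberg adjusted p below 0.05 in limma and 0 were lower, and the other 4 did not pass. Over all genes tested, 25.1% were called, 12.8% higher and 12.3% lower. All 4 measured lysyl oxidase genes (Lox, Loxl1, Loxl3 and Loxl4), 0 of 3 lysyl hydroxylase genes and 1 of 2 prolyl hydroxylase genes (P4ha1) were among the calls. None of the 3 lysyl hydroxylase genes reached an unadjusted limma p below 0.05 either. Over the 9 genes the median difference was 0.72, and over all genes -0.00. The TAC and sham values did not overlap for 5 of the 9 genes, the same 5 that were called, against 25.2% of all genes. Of the 9 genes 3 were at least 2-fold higher, as were 401 of 18193 genes.

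**Figure D1:**
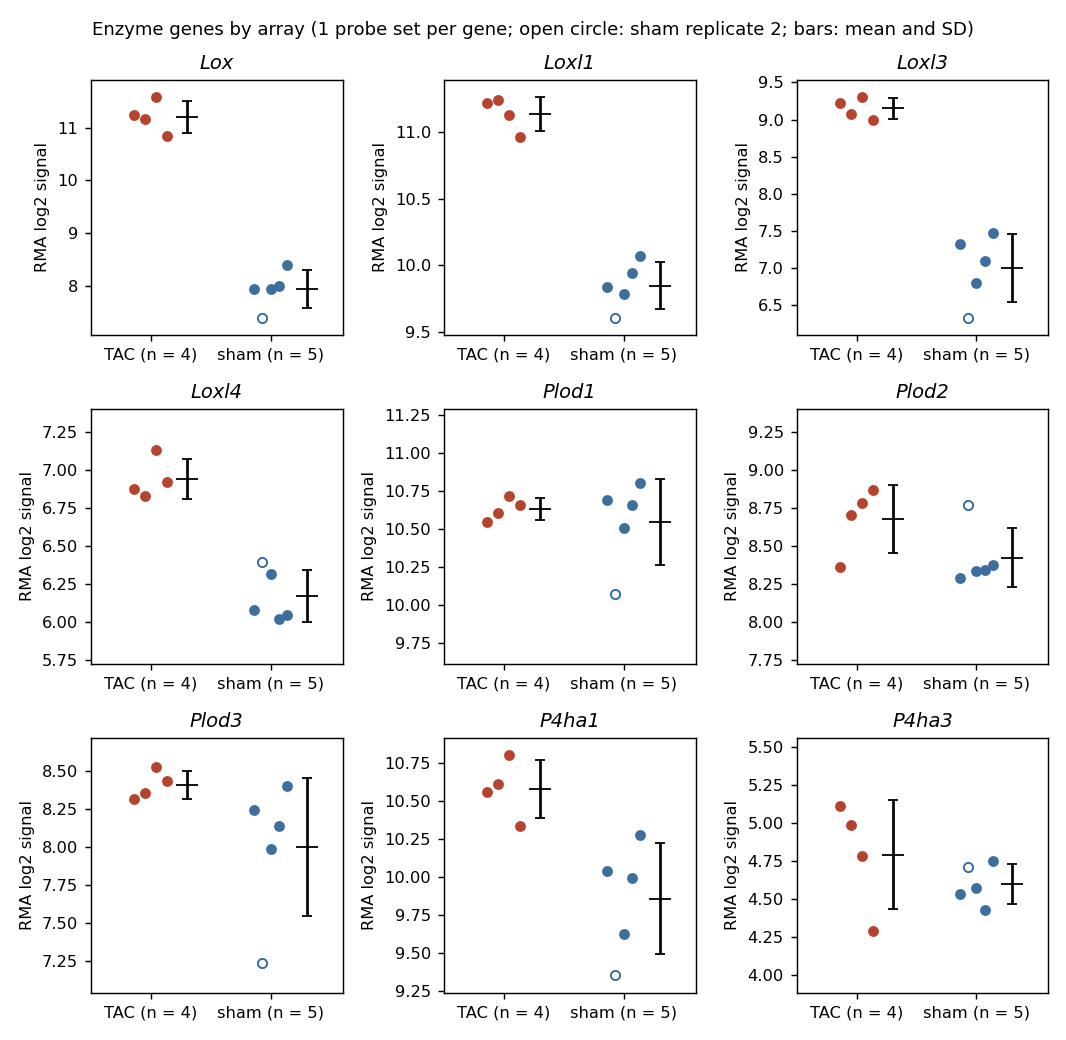
RMA log2 signal of the 9 enzyme genes, 1 panel per gene with its own axis that does not start at 0, in TAC (red, n = 4) and sham (blue, n = 5) arrays, with the mean and SD as black bars and sham replicate 2 as an open circle. The groups are apart in Lox, Loxl1, Loxl3, Loxl4 and P4ha1, and they overlap in Plod1, Plod2, Plod3 and P4ha3.

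Among the sham arrays, replicate 2 was the least like the rest. Its Pearson correlations with them across genes were 0.987 to 0.993, against 0.995 to 0.997 among the other sham arrays, and it had the lowest sham value in 6 of the 9 enzyme genes and the highest in 2. Without it 6 of 9 genes were called higher and 0 lower, the sixth being Plod2. The ventricular label was checked against cardiomyocyte and atrial markers. The ventricular light chain gene Myl2 averaged 14.49 in TAC and 14.51 in sham. Of 6 atrial markers 2 were higher in TAC, Nppa (14.32 in TAC, 12.18 in sham), which stressed ventricle also makes, and Myl4 (8.51 and 8.06). Nr2f2 and Tbx5 were lower, and Myl7 (5.85 in TAC, 5.44 in sham) and Sln (4.29 and 4.47) did not pass. A small atrial share was not tested. Each array had the same median signal of 6.5661, so a general change in RNA per ventricle would not be seen. Of the 4565 called genes 51.1% were higher, and 40.5% after subtracting from each array the median of its tested genes, which left 1978 genes higher and 2907 lower. That centring moved the enzyme differences by 0.05, and the same 5 were called.

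Promoter sequences from RefSeq (GRCm38.p6, 250 bases before to 50 after an annotated start site) were examined for 5 of the 10 listed genes. That of Lox was not examined. The start site used was the outermost start of the gene for Loxl4, Plod1 and Plod3, and lay 99 bases inside it for P4ha1 and 31 for P4ha3, so distances are from the start site of the window. Those of Loxl4 and P4ha1, which rose, and of P4ha3, the other prolyl hydroxylase subunit, which did not pass, are shown 5′ to 3′ on the gene's strand. P4ha1, Plod1, Plod2 and Lox are known as genes that hypoxia-inducible factors can induce, so capitals mark ACGTG or GCGTG, the core letters such factors bind, on either strand.
Loxl4, chr19:42612757-42613056, minus strand: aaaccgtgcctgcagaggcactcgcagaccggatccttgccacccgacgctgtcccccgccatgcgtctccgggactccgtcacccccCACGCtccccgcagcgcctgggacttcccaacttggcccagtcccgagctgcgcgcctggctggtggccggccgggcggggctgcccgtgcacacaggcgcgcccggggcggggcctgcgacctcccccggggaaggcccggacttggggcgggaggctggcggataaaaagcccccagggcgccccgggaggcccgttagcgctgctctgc
P4ha1, chr10:59323046-59323345, plus strand: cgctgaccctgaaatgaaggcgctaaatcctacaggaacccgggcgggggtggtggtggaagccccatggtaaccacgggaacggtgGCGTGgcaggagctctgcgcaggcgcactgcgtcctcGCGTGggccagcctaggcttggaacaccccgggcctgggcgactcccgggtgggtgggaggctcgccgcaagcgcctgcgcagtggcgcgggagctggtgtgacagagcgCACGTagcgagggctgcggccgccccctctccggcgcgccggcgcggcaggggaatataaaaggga
P4ha3, chr7:100285270-100285569, plus strand: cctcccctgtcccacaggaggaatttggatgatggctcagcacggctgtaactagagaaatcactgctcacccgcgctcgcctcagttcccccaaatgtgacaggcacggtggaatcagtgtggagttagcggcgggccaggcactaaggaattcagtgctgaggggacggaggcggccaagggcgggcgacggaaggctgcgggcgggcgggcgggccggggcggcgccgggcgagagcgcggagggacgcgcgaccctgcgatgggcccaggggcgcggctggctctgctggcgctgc
The P4ha1 window held 1 ACGTG, printed as its reverse complement 16 bases before that start site, and 2 GCGTG. The Loxl4 window held 1 GCGTG, and the P4ha3 window held neither. Among the genes that did not pass, the Plod3 window held 1 ACGTG and 3 GCGTG and the Plod1 window 2 GCGTG. Over 32851 promoter windows of the same length, 19.6% held ACGTG and 32.4% GCGTG. The SMAD box letters CAGAC, searched on both strands, stood in the Loxl4 and Plod1 windows and in 49.6% of all windows. TATAAA, also on both strands, stood in the Plod1 and P4ha1 windows and in 13.6% of all. In Plod1 it began 232 bases before the start site of the window, and in P4ha1 at position 40 counted from it.

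Lox encodes the founding lysyl oxidase, which acts on fibrillar collagen and on elastin. It measured 11.23, 11.16, 11.59 and 10.85 in the TAC arrays, against 7.95, 7.39, 7.94, 8.0 and 8.40 in the sham arrays. The lowest TAC value lay more than 2 units above the highest sham value. The difference was 3.27 (SE 0.19, 95% confidence interval 2.84 to 3.70, limma adjusted p = 3.64e-06), a 9.64-fold increase that ranked 16 of 18193 genes by size. Without sham replicate 2 it was 3.13. A dimmer Lox probe set (1448228_at) measured 9.74, 9.74, 10.10 and 9.33 in TAC, against 7.24, 7.13, 7.33, 7.15 and 7.18 in sham. It showed the same separation with a smaller difference of 2.52 (SE 0.13, adjusted p over all probe sets = 1.70e-06), 5.75-fold. The remaining Lox probe set (1437903_at) was among the dimmest 0.915% of all probe sets, at 2.76 to 3.36 in TAC and 2.46 to 2.87 in sham. Its groups overlapped, and its difference of 0.45 had an adjusted p over all probe sets of 0.0536, which passed in 3 of the 9 fits with 1 array left out.

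Loxl1 encodes a lysyl oxidase known for elastic fibre upkeep in mice. It measured 11.22, 11.25, 11.13 and 10.96 in TAC, against 9.84, 9.60, 9.78, 9.94 and 10.07 in sham. The TAC arrays lay within 0.3 units of each other and all above the sham arrays. Loxl1 rose by 1.29 (SE 0.10, adjusted p = 1.56e-05), 2.45-fold. Its dimmer probe set (1436063_at), at 8.69 to 8.96 in TAC and 6.34 to 7.33 in sham, differed by 1.82 (SE 0.18, adjusted p over all probe sets = 8.71e-05). Sham replicate 2 was the lowest array on both probe sets, and without it the differences were 1.23 and 1.64.

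Loxl3 belongs to the lysyl oxidases with scavenger receptor cysteine-rich domains, as do Loxl2 and Loxl4. It measured 9.23, 9.08, 9.31 and 8.99 in TAC, against 7.33, 6.32, 6.80, 7.09 and 7.47 in sham. The sham arrays spread over more than 1 unit, with replicate 2 lowest, and still lay below all TAC arrays. Loxl3 rose by 2.15 (SE 0.20, adjusted p = 4.70e-05), 4.44-fold, and by 1.98 without sham replicate 2. It had no other probe set.

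Loxl4 measured 6.87, 6.83, 7.13 and 6.92 in TAC, against 6.08, 6.40, 6.32, 6.02 and 6.05 in sham. Here sham replicate 2 was the highest sham array. The groups were apart by less than 0.5 units at their nearest values, and Loxl4 rose by 0.77 (SE 0.10, adjusted p = 0.000353), 1.70-fold. Its dimmer probe set (1450134_at), at 4.89 to 5.21 in TAC and 4.65 to 5.08 in sham, overlapped between the groups and did not pass (0.21, adjusted p over all probe sets = 0.222).

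The differences of the lysyl hydroxylase genes were smaller at the probe sets standing for them, which was not tested against the lysyl oxidases. Plod1 encodes the hydroxylase that acts mainly on lysines of the helical part of collagen. It measured 10.55, 10.61, 10.72 and 10.66 in TAC, against 10.69, 10.08, 10.51, 10.66 and 10.80 in sham. The TAC values lay inside the sham range. Its difference, 0.09, did not pass (95% confidence interval -0.21 to 0.38, limma adjusted p = 0.700), and leaving out sham replicate 2 made it -0.03. Its other probe set differed by 0.05 (adjusted p over all probe sets = 0.770).

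Plod2 encodes the enzyme that hydroxylates the lysines of the collagen telopeptides, and its 2 probe sets, which the platform annotation ties to the same transcript, gave different calls. The brighter (1416687_at) measured 8.36, 8.71, 8.78 and 8.87 in TAC, against 8.29, 8.77, 8.34, 8.34 and 8.38 in sham, where replicate 2 lay inside the TAC range. Its difference of 0.25 did not pass (95% confidence interval -0.03 to 0.53, adjusted p = 0.179), and without sham replicate 2 it was 0.34 and passed over all genes (adjusted p = 0.0352) but not over all probe sets (adjusted p = 0.0510). The dimmer (1416686_at) measured 8.47, 8.35, 8.61 and 8.07 in TAC, against 7.95, 7.67, 7.74, 7.83 and 7.93 in sham, with no overlap. It differed by 0.55 (SE 0.11, adjusted p over all probe sets = 0.00653), 1.47-fold. The arrays did not keep their order between the probe sets: TAC replicate 4 was the highest TAC array on the brighter and the lowest on the dimmer, and sham replicate 2 was the highest and the lowest sham array in the same way. The mean of both probe sets differed by 0.40 and passed (adjusted p = 0.00213).

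Plod3 encodes a lysyl hydroxylase that also adds sugars to hydroxylysine. It measured 8.31, 8.35, 8.52 and 8.43 in TAC, against 8.24, 7.23, 7.98, 8.14 and 8.40 in sham. The TAC arrays lay close together at and above the upper end of the sham range, and sham replicate 2 was more than 0.7 units below the next sham array. Plod3 did not pass, with a difference of 0.41 (95% confidence interval -0.04 to 0.85, adjusted p = 0.175), and the difference was 0.21 without sham replicate 2 (adjusted p = 0.127).

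P4ha1 encodes the main catalytic subunit of prolyl 4-hydroxylase. It measured 10.56, 10.62, 10.80 and 10.34 in TAC, against 10.04, 9.35, 9.63, 9.99 and 10.28 in sham. The groups were separated by only the small gap between TAC replicate 4 and sham replicate 5. P4ha1 rose by 0.72 (SE 0.18, adjusted p = 0.0129), 1.65-fold, and by 0.59 without sham replicate 2. Its dimmer probe set (1426519_at), at 7.06 to 7.85 in TAC and 6.76 to 7.14 in sham, overlapped and did not pass (0.41, adjusted p over all probe sets = 0.0811), and it passed without TAC replicate 4 (0.52, adjusted p = 0.0355). In the fit over all probe sets the brighter one also lost its call without TAC replicate 3 (adjusted p = 0.0598).

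P4ha3, another catalytic subunit, measured 5.11, 4.99, 4.78 and 4.29 in TAC, against 4.53, 4.71, 4.57, 4.43 and 4.75 in sham. The TAC arrays spread over both sides of the sham range, with TAC replicate 4 the lowest of all 9 arrays. It did not pass (difference 0.19, 95% confidence interval -0.14 to 0.53, adjusted p = 0.401), and it passed without TAC replicate 4 (0.36, adjusted p = 0.0321). Its probe set stood at the lower 20.9% of all probe sets by mean signal.

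Over single probe sets, 8 of the 16 were called higher and 0 lower in limma, against 17.7% of all probe sets called and 8.87% called higher. The 8 were 2 of Lox, 2 of Loxl1, and 1 each of Loxl3, Loxl4, Plod2 and P4ha1. All 16 differences were above 0, from 0.05 for a Plod1 to 3.27 for a Lox probe set. Without TAC replicate 4 the count was 11, the highest with 1 array left out, and without TAC replicate 3 it was 7, the lowest.

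**Figure D2:**
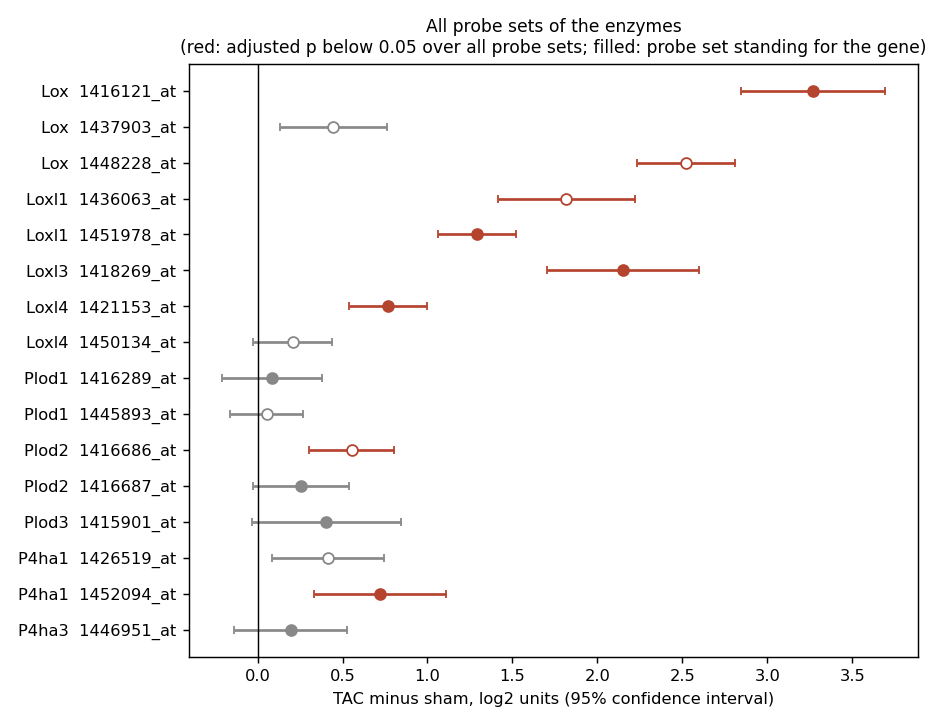
TAC minus sham difference in log2 units with its 95% confidence interval for each of the 16 probe sets, ordered by gene, with red for an adjusted p below 0.05 over all probe sets and filled points for the probe set standing for its gene. The 3 Lox probe sets run from 0.45 to 3.27, and of the 2 Plod2 probe sets the one not standing for the gene is past the threshold.

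Whether the enzymes of a family differed in their response was tested directly. For each pair of a family, 1 gene's log2 value was subtracted from the other's within each array, and the mean of this quantity in TAC and sham was compared by exact permutation, two-sided, over the 126 ways to split the arrays, with Benjamini-Hochberg adjustment over the 10 pairs. The smallest possible p was 0.00794, and 6 of 10 pairs passed. Lox rose by 1.98 more than Loxl1, by 1.12 more than Loxl3 and by 2.50 more than Loxl4, and Loxl3 rose by 0.86 more than Loxl1 and by 1.38 more than Loxl4, each with no overlap between the groups (exact p = 0.00794, adjusted p = 0.0159). The contrast of Lox with Loxl3 rested on the brightest probe sets: with the mean of all probe sets, which takes in the very dim Lox probe set, it was -0.071 (exact adjusted p = 0.767). With that mean the contrasts of Lox with Loxl1 and with Loxl4 shrank to 0.52 and 1.59 and still passed (exact adjusted p = 0.0159). That of Loxl3 with Loxl4 was lost without TAC replicate 1 (exact adjusted p = 0.0595). Loxl1 differed from Loxl4 by 0.53, with overlap and an adjusted p of 0.0567 by the exact test. It passed without sham replicate 5 (0.0408) and with the mean of all probe sets (1.07, exact adjusted p = 0.0159). These contrasts compare probe sets that can differ in sensitivity.

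Among the hydroxylases, the Plod3 difference exceeded that of Plod1 by 0.32 (exact p = 0.0159, adjusted p = 0.0265), with no overlap, although neither gene passed on its own. That call was lost without TAC replicate 1, 3 or 4 (exact adjusted p of 0.0510 to 0.0595) and with the mean of all probe sets (0.336, adjusted p = 0.0661). The other pairs did not pass. Plod2 and Plod1 differed by 0.17 (exact adjusted p = 0.635), Plod3 and Plod2 by 0.15 (0.897), and P4ha1 and P4ha3 by 0.53 (0.119).

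The enzymes were next set against their main substrates. Type I and III collagen, the chief fibrillar collagens of the heart, rose: the mean log2 value of Col1a1, Col1a2 and Col3a1 was 12.68 ± 0.10 in TAC (SD, n = 4) and 11.64 ± 0.11 in sham (SD, n = 5), a difference of 1.03. Subtracting this mean from each enzyme within each array left Lox 2.23, Loxl3 1.12 and Loxl1 0.26 higher in TAC. These 3 thus moved by more than the collagen mean (exact p = 0.00794, adjusted p = 0.0119 over 9 tests, no overlap). Against single collagen genes, Loxl1 rose by 1.29, beside 1.28 for Col1a2, 0.92 for Col1a1 and 0.90 for Col3a1. These values, too, compare probe sets that can differ in sensitivity. The call of Loxl1 was lost without TAC replicate 2 (exact adjusted p = 0.0536). Because the collagen mean itself rose by 1.03, a gene that did not change falls by about as much against it. A fall thus shows only that an enzyme did not rise as much as these collagens. The share of all genes with such a fall was not computed. The enzyme value minus the collagen mean fell by 0.95 for Plod1, by 0.78 for Plod2 and by 0.84 for P4ha3, again with no overlap (exact p = 0.00794, adjusted p = 0.0119). For Plod3 it fell by 0.63, with overlap (exact adjusted p = 0.0408), a call that was lost on leaving out any array but sham replicate 2. With 1 array left out the smallest possible exact p was 0.0179 or 0.0286, which bears on this loss and on that of Loxl1. Loxl4 at -0.27 (adjusted p = 0.119) and P4ha1 at -0.31 (adjusted p = 0.116) did not pass the exact test. With the mean of all probe sets of each gene all 9 enzymes passed: Loxl4 was then at -0.70 and P4ha1 at -0.62 (exact adjusted p = 0.0102 each), and the excess of Lox was 0.89, beside 0.97 for Loxl3.

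**Figure D3:**
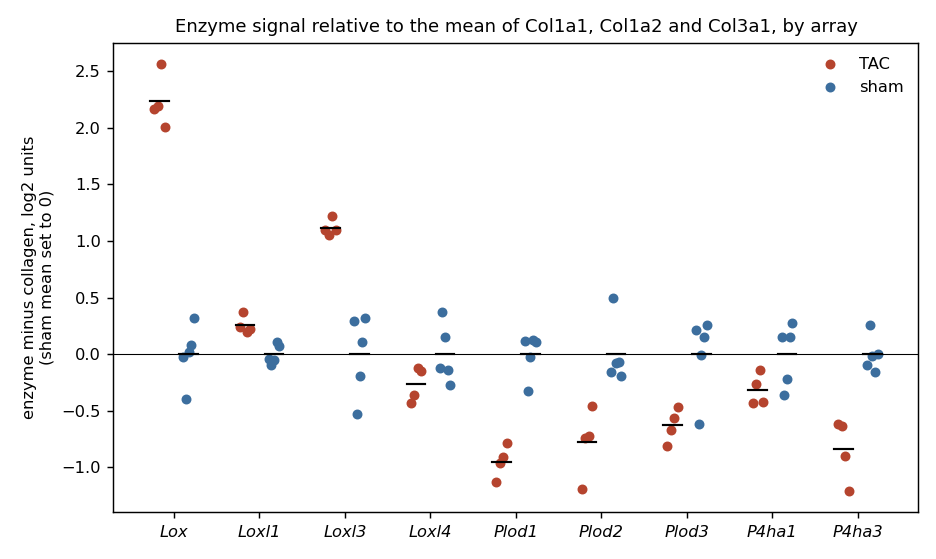
Enzyme log2 signal minus the mean log2 signal of Col1a1, Col1a2 and Col3a1 in each array, with the sham mean of each gene set to 0, for TAC (red, n = 4) and sham (blue, n = 5), and horizontal bars at the group means. TAC arrays lie above all sham arrays for Lox, Loxl1 and Loxl3 and below all of them for Plod1, Plod2 and P4ha3.

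The result for the hydroxylases depended on which collagens stood for the substrate. When the mean of all 11 measured fibrillar chains was used, 3 of the 9 enzymes passed in place of 7: Lox, Loxl3 and Loxl1. The values of Plod1, Plod2, Plod3 and P4ha3 were then -0.47, -0.30, -0.15 and -0.36 (exact adjusted p = 0.0571, 0.107, 0.563 and 0.0571). The mean of the 11 chains was 8.56 to 8.69 in TAC and 8.03 to 8.16 in sham. It weighs each chain alike, and 6 of the 11 did not pass. Dim chains were among them, such as Col24a1 (2.80 in TAC, 2.77 in sham) and Col2a1 (5.15 and 5.07).

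Of those 11 fibrillar collagen chains 5 rose and 0 fell, with a median difference of 0.30 against -0.00 over all genes. Col1a2 rose by 1.28, Col5a2 by 2.03, Col5a1 by 0.97 and Col1a1 by 0.92, and the fifth was Col3a1 (0.90), given as part of the substrate mean. Of 19 other measured genes of procollagen hydroxylation, folding and trimming 7 rose and 2 fell, with a median of 0.27. The prolyl 3-hydroxylase gene P3h2 rose by 1.74, and the procollagen C-proteinase enhancer genes Pcolce and Pcolce2 rose by 1.13 and 1.14. P3h4, which in mice belongs to an endoplasmic reticulum complex with P3h3 and the Plod1 protein, fell by 0.93. Further hydroxylation genes were picked after their values were seen: P3h3 rose by 0.88, P3h1 by 0.48 and P4hb, the partner subunit of the prolyl 4-hydroxylases, by 0.33, while P4ha2, the remaining alpha subunit, did not pass (0.28, adjusted p = 0.0975). The second gene that fell, Adamts3 (-0.70), cuts procollagen N-propeptides.

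All 9 measured elastic fibre and lysyl oxidase partner genes rose, with a median of 1.71. Among them were the microfibril genes Mfap5 (2.39) and Mfap4 (3.03), Fbln5 (1.02), which organises elastin assembly, and Postn (3.28), a matricellular protein that aids lysyl oxidase activation. Of 5 other crosslinking enzyme genes 2 rose, the transglutaminase gene Tgm2 by 0.43 and the factor XIII gene F13a1 by 0.37, and 0 fell. Of 6 genes of copper handling 0 rose and 1 fell, Slc31a2 (-0.34), and of 5 genes of vitamin C uptake and recycling 1 rose, Gsto1 (0.26), and 0 fell. Atp7a, which pumps copper to the secretory pathway and was picked after its value was seen, did not pass, at 0.34 (limma adjusted p = 0.0590).

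Of 7 genes of TGF-beta signalling, a pathway known to induce Lox and other matrix genes, 5 rose and 1 fell, with a median of 0.89. Tgfb2 rose by 2.04, Tgfb3 by 1.54, the receptor gene Tgfbr1 by 0.89 and the target gene Ccn2 by 1.82, and the co-receptor gene Tgfbr3 fell by 0.80. The ligand gene Tgfb1, picked after its value was seen, did not pass (0.54, limma adjusted p = 0.0589). Of 18 hypoxia-inducible genes outside the enzyme set 7 rose and 1 fell, with a median of 0.21. The carbonic anhydrase gene Car9 rose by 1.23, Bhlhe40 by 0.94, the glucose transporter gene Slc2a1 by 0.79 and the oxidative folding gene Ero1a by 0.72, and Egln1 fell by 0.17. Without sham replicate 2 the counts of this list were 5 higher and 0 lower. A link of either list to the enzymes was not tested.

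**Figure D4:**
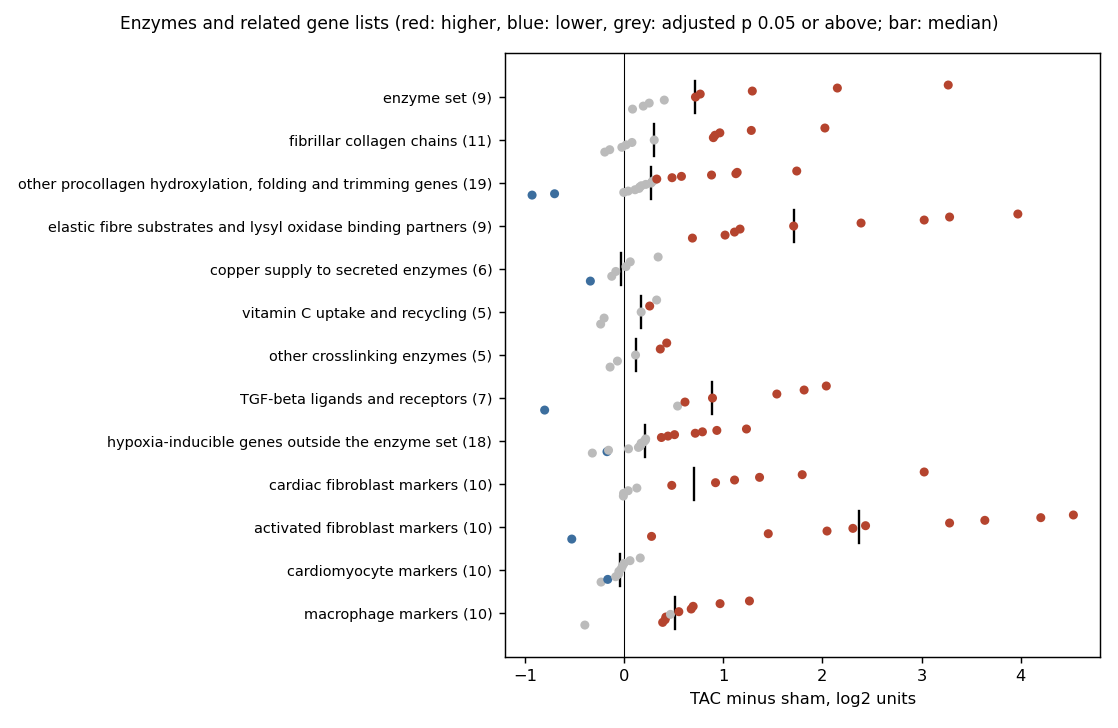
TAC minus sham difference in log2 units of each measured gene of the enzyme set, of the related gene lists and of 4 cell type marker lists, with the number of genes in brackets, red for called higher, blue for called lower, grey for not called, and a bar at each median. The enzyme set has its median at 0.72, elastic fibre and partner genes at 1.71 and cardiomyocyte markers, whose signals lie near the top of the range, at -0.04.

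Markers of several cell types also differed between TAC and sham. Of 10 cardiac fibroblast markers 6 rose and 0 fell, and the mean log2 level of the list was 11.06 to 11.30 in TAC and 10.21 to 10.49 in sham. The defining genes Pdgfra (0.04), Tcf21 (0.13), Dpt (-0.01) and Gsn (-0.00) were among the 4 that did not pass. Of 10 activated fibroblast markers 9 rose and 1 fell, Acta2 (-0.53), and the list level was 10.29 to 10.68 in TAC and 7.58 to 8.68 in sham. Of 10 macrophage markers 8 rose and 0 fell, at 10.16 to 10.28 in TAC and 9.34 to 9.80 in sham. Cardiomyocyte markers stood at 14.25 to 14.27 in TAC and 14.29 to 14.32 in sham, with 0 of 10 higher and 1 lower. These levels lie near the top of the signal range, where a change may not show. Among these markers Myl3 read 14.7675 in every array. Of 10 smooth muscle and pericyte markers 2 rose, Tagln (0.53) and Pdgfrb (0.25), and 4 fell: Abcc9 (-0.69), Myh11 (-0.59), Smtn (-0.45) and Kcnj8 (-0.34). Acta2 is also a smooth muscle gene. The level of that list was 9.86 to 10.06 in TAC and 9.92 to 10.16 in sham. Endothelial markers had 1 of 10 higher and 1 lower. Of 6 blood cell markers 1 rose, Ptprc (0.78), and 1 fell, the platelet gene Ppbp (-2.30). Postn and Mfap4 are in a marker list and in the partner list above. The part of these cells in the enzyme results was not tested, and in whole ventricle more cells of a type and more RNA per cell cannot be told apart.

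Genes with the profile most like each enzyme that rose were found by the root mean square difference of the 9 array values after subtracting each gene's mean. For Lox they were the collagen genes Col22a1 (root mean square difference 0.16) and Col8a1 (0.18) and the secreted Wnt pathway gene Dkk3 (0.18), whose TAC minus sham differences were 3.25, 3.10 and 3.07. For Loxl1 they were Ssc5d, Col1a2 and Sulf1, at 0.07 to 0.08. For Loxl3 they were Kcnj14, Col14a1 and Adamtsl2, at 0.14 to 0.17. For Loxl4 they were Eif1a, Adam9 and Marchf3, at 0.09 to 0.10, and for P4ha1 they were Sall2, Sh3rf3 and Bean1, at 0.10 to 0.11. Collagen genes were thus among the 3 nearest genes of Lox, Loxl1 and Loxl3 and not of Loxl4 or P4ha1. The values were not scaled, so this measure favours genes with a TAC minus sham difference of like size. By that difference Lox ranked 16, Loxl3 58, Loxl1 222, Loxl4 627 and P4ha1 706 of 18193 genes. Shared regulation was not tested.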

How the data were processed

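Left ventricular RNA was measured on 1 array per sample. The log2 values are deposited RMA output, per the submitters' processing notes, with no version given. All arrays held the same distribution. Of the probe sets 64 were controls, 34945 had 1 gene symbol, 932 several, and 9160 are unnamed here. Symbols were matched by gene ID to a RefSeq table. The probe set with the highest mean stood for each gene, and dim genes were kept. Groups came from the treatment label, and replicate numbers are only the order of the samples. No label names the animal behind an array, so the p-values rest on the spread among these arrays, which may be technical. The number of arrays limits the precision.

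TAC and sham were compared across all genes and across all probe sets in R 4.3.3 with limma 3.58.1 (functions lmFit and eBayes, no covariate, two-sided, 7 residual and 3.27 prior degrees of freedom), with Benjamini-Hochberg adjusted p below 0.05 as the call. Differences between enzymes and between enzymes and collagens were compared by exact permutation tests. Fits were tested on simulated data. Members, lists and tests were chosen with earlier results of these data known. Named genes were all members, up to 4 called genes of each related list by smallest p with a gene of each direction where both occurred, and the 3 nearest profiles of each called member. Col3a1, Col2a1, Col24a1, Adamts3, marker genes and genes said to be picked after their values were seen stand outside this rule. Figures were drawn with matplotlib 3.10.9 in Python 3.11.15. Protein sequences were not used here.

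Results were recomputed with the mean of each gene's probe sets, with genes above the median brightness, a robust fit with a mean-variance trend, weights per array, median centring, cyclic loess, probe sets below 13, an adjusted p below 0.01, exact permutation tests of the member genes, another set of collagens, and leaving out each array.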

Additional observations from a re-analysis of the deposited data

Results flagged for a closer look

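In 32 groups of values (16 probe sets, each in TAC and in sham) 2 held an array whose gap to the nearest value, as a share of the group's range, was above the 95% critical value of Dixon's test, and chance gives about 1 in 20 groups. For the dimmer Plod1 probe set, TAC replicate 4 measured 5.62, below the next TAC value of 5.88. For the brighter Plod2 probe set, sham replicate 2 measured 8.77, above the next sham value of 8.38.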

How the results depend on the processing

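Lox, Loxl1, Loxl3 and Loxl4 kept their direction and their call under every alternative that could be run for them, with differences of 2.08 to 3.39 for Lox, 1.23 to 1.55 for Loxl1, 1.98 to 2.27 for Loxl3 and 0.49 to 0.82 for Loxl4. Loxl4 and P4ha3 were too dim for the test of genes above the median brightness. P4ha1 passed under 17 of 18 alternatives, the exception being an adjusted p below 0.01. Plod2 passed in 3 of 18 and P4ha3 in 1 of 17, and Plod1 and Plod3 in none of 18. The count of enzyme genes called higher ran from 4 to 6, that of pairs of enzymes from 4 to 7, that of enzymes past the threshold against collagen from 3 to 9 and that of probe sets from 7 to 11. Without 1 array the smallest exact p was 0.0179 or 0.0286, which bears on the lost calls of pairs and of enzymes against collagen. With the mean of probe sets, the contrast of Lox with Loxl3 turned to -0.071 (exact adjusted p = 0.767), and against collagen all 9 enzymes passed. Against all fibrillar collagen chains, 3 enzymes passed in place of 7, and the values of Loxl4 and P4ha1, neither past the threshold, turned to 0.21 and 0.16. The cause was not tested. Over all genes, 1770 to 2896 were called higher and 1605 to 3045 lower. No paired analysis was possible because the labels give no replicate numbers. Dim probe sets of Lox, Loxl4 and P4ha3 limit what their overlap can show.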
